A study of Mus musculus with 16 samples.

Results

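Etv1, Etv4, Etv5, Ets1, Ets2, Elk1, Elk3, Elk4 and Etv6 are 9 genes of the ETS transcription factor family, out of 20972 genes named on an Agilent mouse expression array. They are a list of names with no threshold on a measured value, drawn up with earlier results of these data known. Where a gene had several probes, the one brightest on average was used (the brightest probe below). The RNA came from E14tg2a cells, a mouse embryonic stem cell line, with a tamoxifen-inducible c-Raf kinase fusion. All groups shared this line and fusion, and all were grown without feeders on gelatin in medium with fetal serum and the cytokine LIF. The 8 groups had 2 arrays each. DMSO cells received the vehicle. The 0h cells received 250 nM PD173074, an inhibitor of FGF receptors, for 24 h and were not induced. The 30m, 1h, 2h, 4h, 8h and 24h cells had the same 24 h of inhibitor and then 250 nM 4-hydroxytamoxifen (4OHT) for the time in their name, with the inhibitor still present. The free-text description of the 4h samples gives minutes, whereas their title and time point give 4h, which was used. The time course therefore asks how ETS genes respond when the ERK pathway is driven from c-Raf below a blocked FGF receptor, and the comparison of 0h with DMSO asks what the inhibitor alone did. Time in the inhibitor grew with the time of 4OHT, and no group had the inhibitor alone for longer than 24 h. In the differences from 0h, longer inhibitor treatment and 4OHT therefore cannot be told apart. Cells given 4OHT without the fusion, or 4OHT without the inhibitor, were not analysed here. Nothing in the labels places the 2 replicates of a group in separate cultures or gives the number of clones behind the line, so every p-value here is set against a replicate spread that may be technical only.

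ETS proteins share a DNA-binding domain that recognises a GGAA core. They are divided into subfamilies that ERK signalling reaches in different ways. Etv1, Etv4 and Etv5 form the PEA3 group. Their genes are known transcriptional targets of FGF and ERK signalling, and the repressor Capicua, which ERK removes, acts on them in several mammalian tissues. Ets1 and Ets2 are activators whose proteins ERK phosphorylates. Elk1, Elk3 (also called Net) and Elk4 (also called Sap1) are the ternary complex factors, which bind beside serum response factor at immediate early genes and are activated by ERK phosphorylation. Etv6 (also called Tel) is a repressor that oligomerises through its pointed domain. The arrays measured RNA only, so phosphorylation of these proteins lay outside the measurement.

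The values are log2 of the processed signal minus the log2 of the 75th percentile of that array, so 0 is the 75th percentile. That percentile ran from 445 to 660 signal units, and 54.9% to 67.2% of spots were well above background (at most 60% on slide 1 and at least 61.5% on slide 2). Slide here means the arrays that share 1 scan date in the file headers, and was not read from a slide label. The brightest probes of all 9 genes were well above background on 16 of 16 arrays. The deposited value table and the attachment of the scanner files disagree on which sample 8 of the 16 arrays belong to. The value table's headings were used. Under them slide 1 carried replicate 1 and slide 2 carried replicate 2 of every group, and the 2 replicates of a group correlated at 0.982 to 0.990 over genes, against 0.948 to 0.989 with the arrays grouped as attached. The results below rest on that choice. With the arrays grouped as attached, limma called 0 of the 9 genes in each of the 11 tests used here, and 0 to 2 of the 9 had an unadjusted p under 0.05. Of the 15846 genes tested under that grouping, it called from 0 (1h against 0h) to 635 (an F test over the times). Against 0h it called 304 at 4h, 388 at 8h and 331 at 24h. As a check of the labelled cell type, 8 of 8 embryonic stem cell markers were well above background on all 16 arrays, with levels between -1.76 and 7.64. Markers of other cell types were mixed. Of the fibroblast markers, Postn and Lum were above background on 0 arrays, while Col1a1 and Col3a1 were above it on 15 and Col1a2 on 16, none of them over -0.82 on any array. Of the blood and endothelial markers, Cdh5 was above background on 0 arrays and Kdr, Tek, Gata1, Ptprc and Runx1 on 16, with Kdr between 3.12 and 3.63. Of the mesoderm markers, Mixl1 was above background on 0 arrays, T on 2, Mesp1 on 4 and Eomes on 16. The neural markers Tubb3 (mean 2.45), Nes (1.00) and Sox1 (-1.69) were above it on 16 arrays and Pax6 (-1.81) on 15. The primitive endoderm marker Gata4 was above it on 16, Gata6 on 15, Sox7 on 14, Sox17 on 13, Dab2 on 11 and Afp on 1.

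The sequences shown first are the 300-base start windows (250 bases before to 50 after a transcription start) of the genes that a test called below, to show what ETS core letters they carry. RefSeq windows of build GRCm38.p6 were held for 7 of the 9 genes, 11 windows in all. Etv1, Etv5, Ets2, Elk3 and Etv6 are shown, each by the window with the most GGAA letters, and all run 5′ to 3′ on the strand of the gene. Etv1 lies at chr12:38779832-38780131 (plus strand), Etv5 at chr16:22438319-22438618 (minus strand), Ets2 at chr16:95702157-95702456 (plus strand), Elk3 at chr10:93311110-93311409 (minus strand) and Etv6 at chr6:134035450-134035749 (plus strand). Capitals mark GGAA or its reverse complement TTCC, and in Etv5 also TGAATGG or its reverse complement.
Etv1: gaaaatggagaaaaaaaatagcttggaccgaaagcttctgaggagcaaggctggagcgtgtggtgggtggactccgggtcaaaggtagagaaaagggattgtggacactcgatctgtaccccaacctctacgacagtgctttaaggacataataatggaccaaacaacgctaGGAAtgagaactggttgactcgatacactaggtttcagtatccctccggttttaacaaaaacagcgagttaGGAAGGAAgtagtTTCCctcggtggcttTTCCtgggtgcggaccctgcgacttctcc
Etv5: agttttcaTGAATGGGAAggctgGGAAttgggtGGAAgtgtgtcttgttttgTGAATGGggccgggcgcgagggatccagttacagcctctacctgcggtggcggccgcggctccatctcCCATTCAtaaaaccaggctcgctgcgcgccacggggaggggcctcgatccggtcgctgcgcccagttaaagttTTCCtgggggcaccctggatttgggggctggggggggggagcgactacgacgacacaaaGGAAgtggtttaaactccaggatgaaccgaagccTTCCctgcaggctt
Ets2: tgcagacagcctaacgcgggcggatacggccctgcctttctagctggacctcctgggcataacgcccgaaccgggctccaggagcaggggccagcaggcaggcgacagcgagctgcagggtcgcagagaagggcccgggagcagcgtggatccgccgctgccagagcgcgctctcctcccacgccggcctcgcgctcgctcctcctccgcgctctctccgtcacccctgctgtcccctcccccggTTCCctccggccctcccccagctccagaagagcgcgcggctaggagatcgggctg
Elk3: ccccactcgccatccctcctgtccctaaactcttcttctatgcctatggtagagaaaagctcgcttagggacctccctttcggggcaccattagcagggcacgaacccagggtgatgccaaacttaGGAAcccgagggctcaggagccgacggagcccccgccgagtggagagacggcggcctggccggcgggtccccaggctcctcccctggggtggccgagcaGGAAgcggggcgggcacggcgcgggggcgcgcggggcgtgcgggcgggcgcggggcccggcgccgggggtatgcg
Etv6: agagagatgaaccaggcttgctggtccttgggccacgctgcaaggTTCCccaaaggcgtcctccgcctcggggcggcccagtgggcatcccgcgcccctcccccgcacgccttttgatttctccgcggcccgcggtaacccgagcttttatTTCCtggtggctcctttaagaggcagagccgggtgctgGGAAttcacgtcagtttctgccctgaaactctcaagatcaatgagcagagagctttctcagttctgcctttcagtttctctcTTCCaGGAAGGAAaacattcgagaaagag
On both strands together, the GGAA core occurred 5 times in the Etv1 window, 6 times in Etv5, 1 time in Ets2, 2 times in Elk3 and 6 times in Etv6. These windows were picked for that count, and the windows not shown held the core 1 time in Etv1 and 0 times in Etv5. Of 32851 RefSeq start windows of the same length, 96% held the core at least 1 time, with a median of 3 over windows that were not picked. The longer form CGGAAGT was in none of these 5 windows and in 6.42% of all windows. The Capicua octamer, searched as TNAATGNA, was in none of the 11 windows and in 11.7% of all. The AP-1 motif TGANTCA (7.81% of all windows) and the CArG box of serum response factor (1.63%) were in none of the 11 either. The shorter run TGAATGG, chosen after reading the Etv5 letters, occurred 3 times in that window, and 1 of those copies overlaps a GGAA core. It was in 3.59% of all windows. The 1 of the 32851 that held it 3 times or more is this Etv5 window itself, from which the run was chosen. These matches describe letters and are not evidence of binding.

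Etv4 and Etv1 moved most. Under the inhibitor Etv1 was 4.38-fold lower at 0h than in DMSO and Etv4 8.04-fold lower, and both kept near the 0h level through 30m and 1h of 4OHT. At 24h Etv4 was 31.3-fold and Etv1 6.16-fold higher than at 0h. Ets2 ran the other way. It was 2.06-fold higher at 0h than in DMSO and 1.85-fold lower at 24h than at 0h. Etv6 and Elk3 changed over the time course. The group means of Etv6 spanned 1.55 on the log2 scale with the highest at 4h, and those of Elk3 spanned 1.64 with the lowest at 2h and the highest at 24h. Etv5 stayed within 0.80 of its lowest group mean, and no test called Ets1, Elk1 or Elk4 on the brightest probe.

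**Figure D1:**
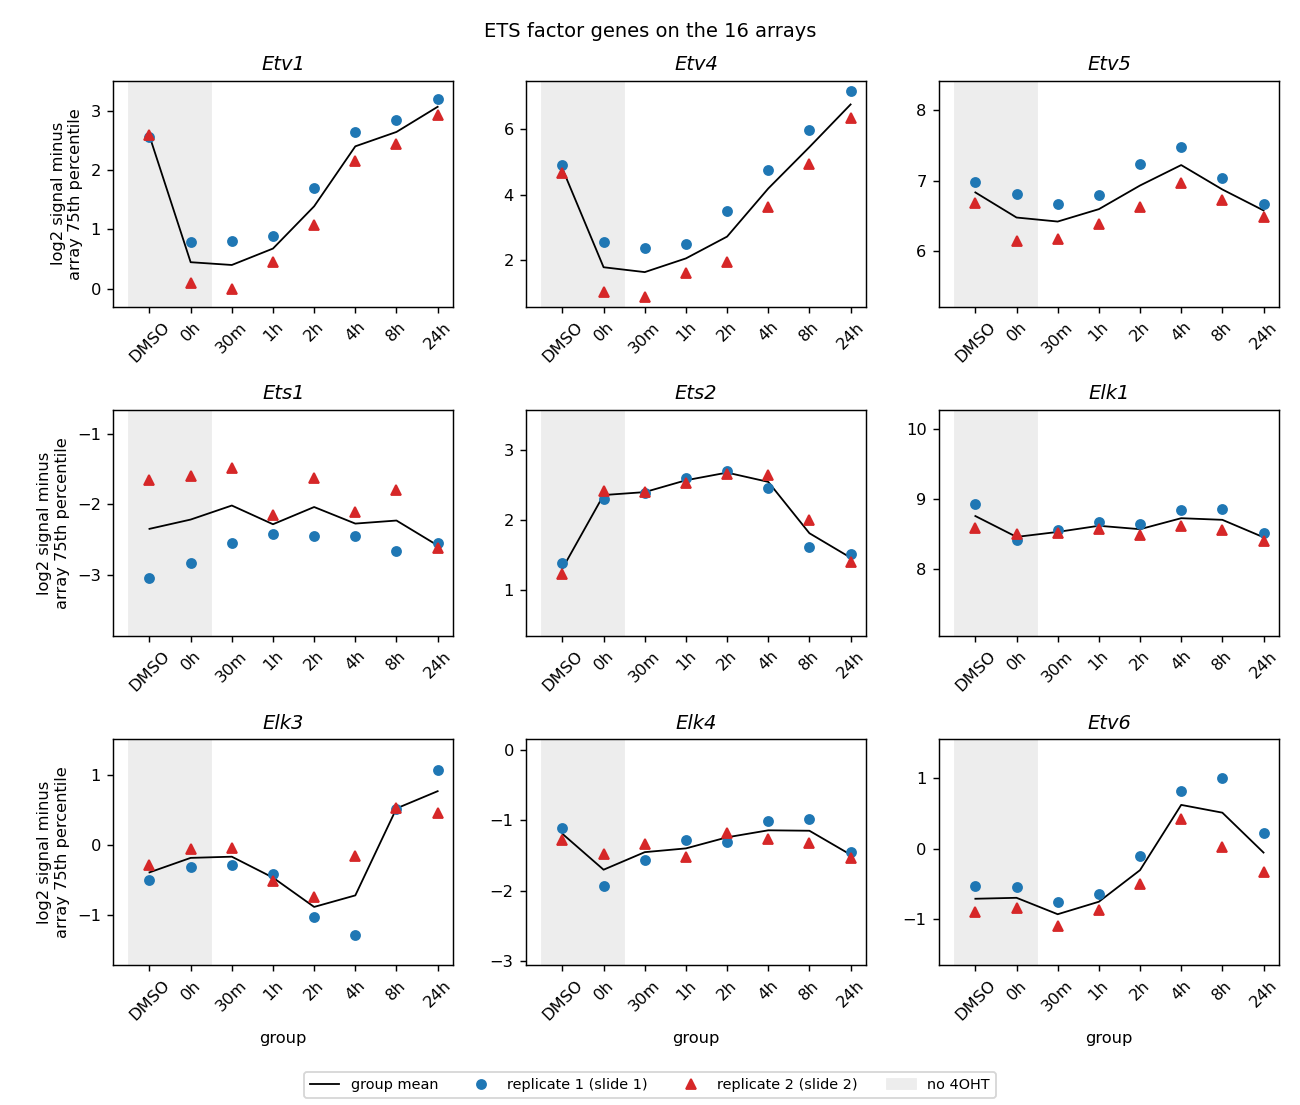
Log2 signal minus the array's 75th percentile (y) of the 9 ETS factor genes in the 8 groups (x, vehicle and uninduced groups at the left on grey, then time of 4OHT), with 1 point per array, circles for replicate 1 and triangles for replicate 2, and a line through the group means. Each panel has its own y axis. Etv1 and Etv4 dip from DMSO to 0h and climb to their highest values at 24h, Ets2 has the opposite shape, and Etv5 and Etv6 are highest at 4h.

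A gene was called when its Benjamini-Hochberg adjusted p over all 15660 tested genes was under 0.05 in limma, fitted to 8 group means over 16 arrays. Arrays of the same slide deviated together, so the same fit with the slide as a block is given beside the results of the 9 genes where it changes a call. The F test of the 6 differences from 0h called 5 of the 9 genes, against a background of 21.3% of tested genes. They were Etv1 (adjusted p = 0.00146), Ets2 (0.00192), Etv4 (0.00384), Elk3 (0.0216) and Etv6 (0.0233). The block added Etv5 (0.00473), which made 6 of the 9 against a background of 45.6%. The F test calls of Elk3 and Etv6 each depended on some arrays. That of Elk3 was lost without 2h replicate 1 (adjusted p = 0.0534) or 24h replicate 1 (0.0784), and that of Etv6 without 4h replicate 1 (0.0659), 30m replicate 2 (0.0543) or 1h replicate 2 (0.0504). Centring arrays on the median in place of the 75th percentile ended the F test calls of Ets2 (0.0544) and Etv6 (0.16).

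At 0h against DMSO, 1 of the 9 genes was called higher and 1 lower, where 2.21% of tested genes were called higher and 1.28% lower. At 30m, 1h and 2h against 0h limma called 0 of the 9, and the backgrounds were 0%, 0% and 0.115%. The block called 0 of the 9 there as well, with backgrounds of 0%, 0.0192% and 0.479%. At an unadjusted p under 0.05 the 9 genes gave 0, 0 and 3 at those times, while all tested genes gave 96, 345 and 950. With the block the 9 genes gave 0, 0 and 7, while all tested genes gave 207, 822 and 2126. At 4h, 1 gene rose and 0 fell against backgrounds of 1.49% higher and 1.70% lower. At 8h, 2 rose and 0 fell against 3.12% and 3.52%. At 24h, 2 rose and 1 fell against 10.8% and 12.9%. The block raised these counts to 4 and 0 at 4h (backgrounds 7.75% and 8.36%), 4 and 1 at 8h (8.44% and 12.6%) and 4 and 1 at 24h (18.3% and 21.1%), and it called 1 higher and 2 lower at 0h against DMSO (8.25% and 6.69%). The median difference of the 9 genes from 0h was 0.39 at 2h, 0.56 at 4h, 0.55 at 8h and 0.21 at 24h, beside 0.038, 0.0089, -0.044 and -0.0082 for all tested genes.

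**Figure D2:**
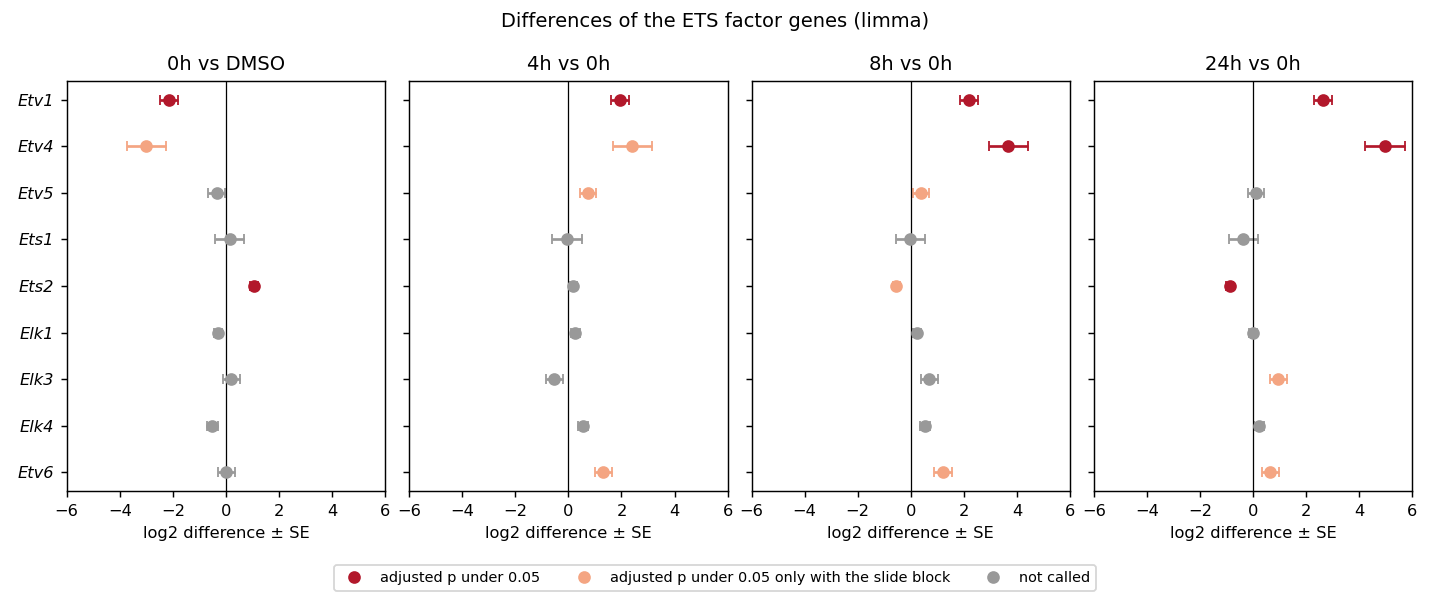
Log2 difference (x) ± SE of each of the 9 genes in 4 comparisons, from limma with n = 2 arrays per group. Dark red points passed an adjusted p of 0.05, light red points passed it only with the slide as a block, and grey points did not pass. Etv4 at 24h against 0h lies farthest right at 4.97 and Ets1 has wide bars that cross 0 in all 4 panels.

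Etv1 encodes a PEA3 group activator, also called ER81. On slide 1 it stood at 2.56 in DMSO, 0.79 at 0h, 0.80 at 30m, 0.90 at 1h, 1.71 at 2h, 2.64 at 4h, 2.86 at 8h and 3.20 at 24h. On slide 2 it stood at 2.59 in DMSO, 0.10 at 0h, -0.0014 at 30m, 0.46 at 1h, 1.07 at 2h, 2.16 at 4h, 2.44 at 8h and 2.94 at 24h. The 0h, 30m and 1h arrays are the low ones, and no 2h array or later array overlaps the 0h arrays. At 0h it fell 4.38-fold against DMSO (log2 difference -2.13 ± 0.34 SE, adjusted p = 0.0122, limma). Against 0h it differed by 0.94 ± 0.34 at 2h, which was not called (adjusted p = 0.687, 0.062 with the slide as a block). It rose by 1.96 at 4h (adjusted p = 0.0202), by 2.20 at 8h (0.00654) and by 2.62 at 24h (0.000612), all ± 0.34. In the order of group means, 30m, 0h and 1h came lowest and overlapped each other, then 2h and 4h stood apart from the group below, 4h, DMSO and 8h overlapped, and 24h stood above 8h on both slides. At 24h it was 0.49 ± 0.34 above DMSO (adjusted p = 0.42, 95% interval -0.27 to 1.25). The call at 0h against DMSO was lost without DMSO replicate 1 (-2.15), DMSO replicate 2 (-2.12) or 0h replicate 2 (-1.79), and the call at 4h without 0h replicate 1 (2.3), 4h replicate 1 (1.72) or 0h replicate 2 (1.61). That at 8h was lost without 8h replicate 1 (1.99). With median centring the difference was -2.05 at 0h against DMSO (adjusted p = 0.0698) and 1.96 at 4h against 0h (0.116), neither called.

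Etv1 had a dimmer probe, which was well above background on 7 of the 16 arrays. It read -4.32 and -5.09 in DMSO, -7.22 and -7.52 at 0h, -4.00 and -4.04 at 4h, -4.01 and -4.92 at 8h and -3.91 and -4.18 at 24h (replicate 1 before replicate 2). Neither 0h array was above background, 1 of the 2 DMSO arrays was, and all 4h, 8h and 24h arrays were. Relative to 0h its level was higher by at least 2.24-fold at 4h (adjusted p over probes = 0.0339), by at least 1.65-fold at 8h (0.0317) and by at least 2.20-fold at 24h (0.00514). Each bound compares the mean of the brighter group with the detection floor of the 0h arrays, which is the dimmest signal still well above background there. The p-values test the log2 difference of the signals as read, those below background included, and not the bounds. This probe passed the filter only through the 4h, 8h and 24h groups, so its p-values against 0h are not independent of the filter.

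Etv4 encodes the PEA3 factor itself. Its slide 1 arrays read 4.92 in DMSO, 2.55 at 0h, 2.39 at 30m, 2.51 at 1h, 3.51 at 2h, 4.75 at 4h, 5.97 at 8h and 7.17 at 24h. Its slide 2 arrays read 4.67 in DMSO, 1.03 at 0h, 0.89 at 30m, 1.60 at 1h, 1.94 at 2h, 3.62 at 4h, 4.94 at 8h and 6.34 at 24h. The slide 2 arrays lay lower in every group, so the spread between replicates was wide (1.79 ± 1.08 at 0h, against 4.79 ± 0.18 in DMSO, SD, n = 2 each), and no 4h, 8h, 24h or DMSO array overlaps the 0h arrays. At 0h against DMSO it differed by -3.01 ± 0.74 (adjusted p = 0.0564, limma), and with the slide as a block it was called lower (0.000427), with -2.37 within slide 1 and -3.64 within slide 2. At 4h against 0h it differed by 2.40 ± 0.74 (adjusted p = 0.112) and was called higher with the block (0.00172). It rose 12.7-fold at 8h (3.67 ± 0.74, adjusted p = 0.02) and 31.3-fold at 24h (4.97 ± 0.74, adjusted p = 0.00122). The 24h step was 4.62 on slide 1 and 5.31 on slide 2. The call at 8h was lost without 8h replicate 1 (3.15) or 0h replicate 2 (2.91).

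Between 8h and 24h Etv4 was called higher only with the block. At 24h it lay 1.30 ± 0.74 above 8h (adjusted p = 0.332, 0.0107 with the block) and 1.96 ± 0.74 above DMSO (0.123, called with the block at 0.00162). In the order of its group means 30m, 0h, 1h and 2h overlapped their neighbours, 4h stood apart from 2h, 4h and DMSO overlapped, and 8h and 24h each stood apart from the group below. Its group means spanned 5.12, more than the span of 99.6% of tested genes, beside 2.67 and 95.6% for Etv1. The other Etv4 probe moved alike, with 5.34 and 4.71 at 24h against 0.23 and -0.97 at 0h. Its difference at 24h against 0h was 5.39 ± 0.76 (adjusted p over probes = 0.00161), at 8h 4.06 ± 0.76 (0.0229) and at 0h against DMSO -3.50 ± 0.76 (0.0543).

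Etv5, also called ERM, completes the PEA3 group. On slide 1 it stood at 6.99 in DMSO, 6.81 at 0h, 6.67 at 30m, 6.80 at 1h, 7.24 at 2h, 7.48 at 4h, 7.03 at 8h and 6.67 at 24h. On slide 2 it stood at 6.68 in DMSO, 6.15 at 0h, 6.17 at 30m, 6.39 at 1h, 6.62 at 2h, 6.97 at 4h, 6.72 at 8h and 6.49 at 24h. The 4h arrays are the highest on each slide and do not overlap the 0h arrays. At 4h against 0h it differed by 0.74 ± 0.31 (adjusted p = 0.222, limma), and with the slide as a block it was called higher (0.00667), at 0.67 on slide 1 and 0.81 on slide 2. At 8h the difference was 0.40 ± 0.31 (0.514, called with the block at 0.0474). At 24h against 0h it differed by 0.10 ± 0.31 (adjusted p = 0.873, 95% interval -0.58 to 0.78), with -0.13 on slide 1 and 0.33 on slide 2. At 0h against DMSO it differed by -0.36 ± 0.31 (adjusted p = 0.633, 95% interval -1.04 to 0.32). All neighbours in the order of its group means overlapped. The 3 PEA3 genes thus had different shapes, and the difference between their changes was not tested.

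**Figure D3:**
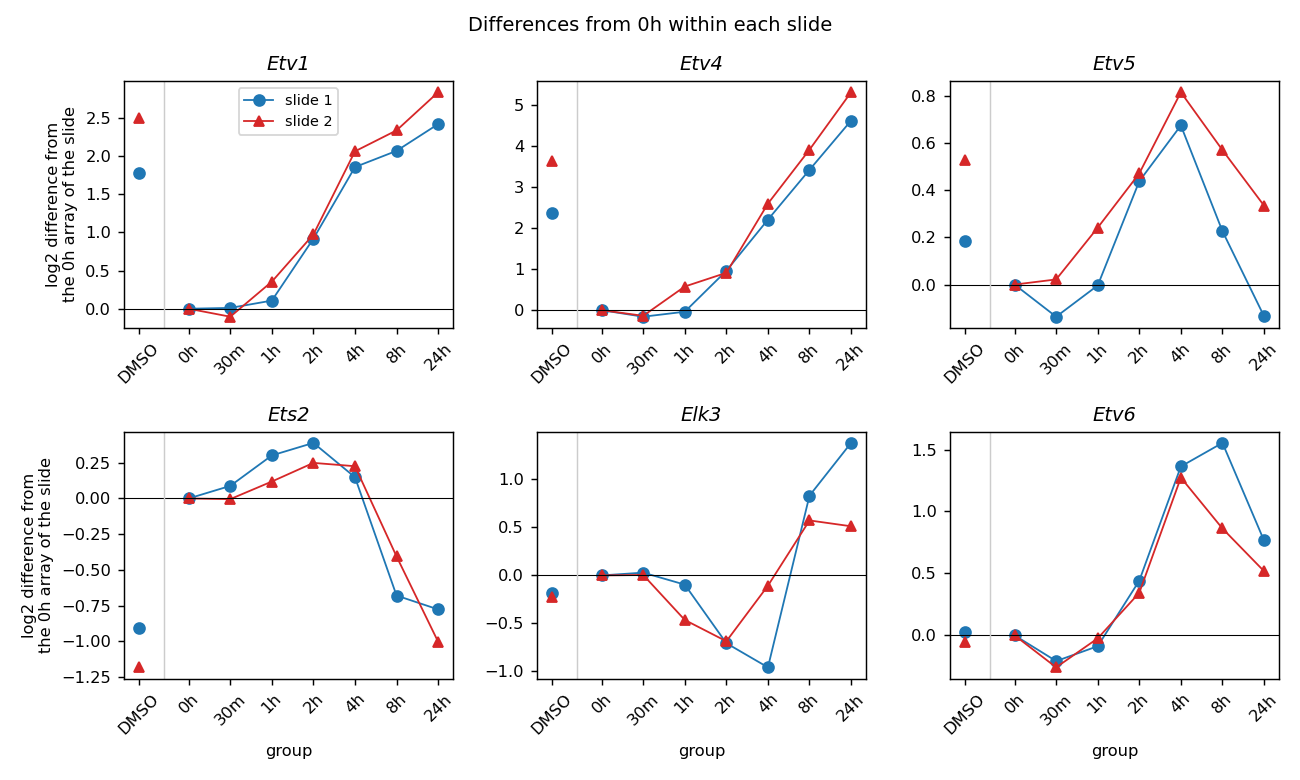
Log2 difference (y) of each array from the 0h array of its own slide for 6 of the genes, over the groups (x, DMSO at the left), circles for slide 1 and triangles for slide 2. Each panel has its own y axis. The slides run together for Etv1 and Etv4, reaching 2.42 and 2.83 for Etv1 and 4.62 and 5.31 for Etv4 at 24h, while Elk3 at 4h is -0.96 on slide 1 and -0.11 on slide 2.

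Ets1 is known best from lymphoid and endothelial cells. On slide 1 its brightest probe read -3.05 in DMSO, -2.83 at 0h, -2.55 at 30m, -2.42 at 1h, -2.46 at 2h, -2.45 at 4h, -2.66 at 8h and -2.55 at 24h. On slide 2 it read -1.65 in DMSO, -1.61 at 0h, -1.49 at 30m, -2.15 at 1h, -1.62 at 2h, -2.11 at 4h, -1.80 at 8h and -2.62 at 24h. Slide 1 lies below slide 2 in 7 of the 8 groups, and every pair of groups compared overlaps. Its differences from 0h ran from -0.37 at 24h to 0.20 at 30m, each ± 0.56, and the F test gave an adjusted p of 1 (0.707 with the block). The interval at 24h against 0h, -1.62 to 0.88, leaves changes of more than 1 on the log2 scale unresolved. The other Ets1 probe, dimmer and above background on 11 of 16 arrays, differed from this. It read -4.51 and -4.09 at 0h against -6.34 and -5.61 in DMSO, where neither array was above background, and its 0h level exceeded DMSO by at least 1.55-fold (adjusted p over probes = 0.0244), whereas the brightest probe gave 0.13 ± 0.56. At 24h this probe read -3.96 and -4.57, exceeding DMSO by at least 1.59-fold (adjusted p over probes = 0.00908), whereas the brightest probe gave -0.24 ± 0.56. For the dimmer probe both p-values test the log2 difference of the signals as read, those below background included, and not the bounds. That probe passed the filter through groups other than DMSO, 0h and 24h among them, so these p-values are not independent of the filter. In the order of group means on the brightest probe (24h, DMSO, 1h, 4h, 8h, 0h, 2h and 30m, low to high), all neighbours overlapped.

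Ets2 encodes the closest relative of Ets1 and is known in mouse for its part in the trophoblast. Its slide 1 arrays read 1.39 in DMSO, 2.30 at 0h, 2.39 at 30m, 2.60 at 1h, 2.69 at 2h, 2.45 at 4h, 1.62 at 8h and 1.52 at 24h. Its slide 2 arrays read 1.23 in DMSO, 2.41 at 0h, 2.40 at 30m, 2.53 at 1h, 2.66 at 2h, 2.63 at 4h, 2.00 at 8h and 1.41 at 24h. DMSO, 8h and 24h hold the low arrays, and none of them overlaps the arrays of 0h to 4h. It rose 2.06-fold at 0h against DMSO (1.04 ± 0.14, adjusted p = 0.00643, limma). Against 0h it differed by 0.32 ± 0.14 at 2h (adjusted p = 0.814) and by -0.54 ± 0.14 at 8h (0.051, called lower with the slide as a block at 0.0203). It fell 1.85-fold at 24h (-0.89 ± 0.14, adjusted p = 0.00183), to a level 0.15 ± 0.14 above DMSO (adjusted p = 0.579, 95% interval -0.16 to 0.47). At 8h it was 0.50 ± 0.14 above DMSO (0.0685, called with the block at 0.0283). From low to high its groups ran DMSO, 24h, 8h, 0h, 30m, 4h, 1h and 2h, and among neighbours the arrays overlapped between 0h and 30m and between 4h and 1h. The call at 0h against DMSO was lost without 0h replicate 2 (0.989) and with median centring (1.12, adjusted p = 0.0677).

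Elk1 encodes a ternary complex factor that serum and mitogens activate by phosphorylation. Its brightest probe varied least of the 9 genes. The mean level of that probe was 8.60, at percentile 99.73 among probes, against -2.19 for the other Elk1 probe. Before centring, the signal of the brightest probe lay between 189800 (24h replicate 2) and 225600 (0h replicate 1). The 75th percentile subtracted from it ran from 445 to 660. Whether the brightest probe follows Elk1 RNA at this level was not tested. The slide 1 arrays gave 8.92 in DMSO, 8.42 at 0h, 8.55 at 30m, 8.67 at 1h, 8.65 at 2h, 8.84 at 4h, 8.85 at 8h and 8.52 at 24h. The slide 2 arrays gave 8.59 in DMSO, 8.51 at 0h, 8.51 at 30m, 8.57 at 1h, 8.49 at 2h, 8.61 at 4h, 8.55 at 8h and 8.40 at 24h. Its group means spanned 0.30, and 8.89% of tested genes spanned less. At 24h against 0h it differed by -0.0051 ± 0.15 (adjusted p = 0.99, limma, 95% interval -0.35 to 0.34). From low to high the groups ran 24h, 0h, 30m, 2h, 1h, 8h, 4h and DMSO, and the neighbours other than 0h and 30m overlapped. The other Elk1 probe was dimmer and above background on all 16 arrays. It read -3.15 and -2.87 at 24h against -2.34 and -1.80 at 0h, which do not overlap, and fell by 0.94 ± 0.21 (adjusted p over probes = 0.0132). The 2 probes of Elk1 thus gave different results at 24h, and which of them follows the main transcript was not tested.

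**Figure D4:**
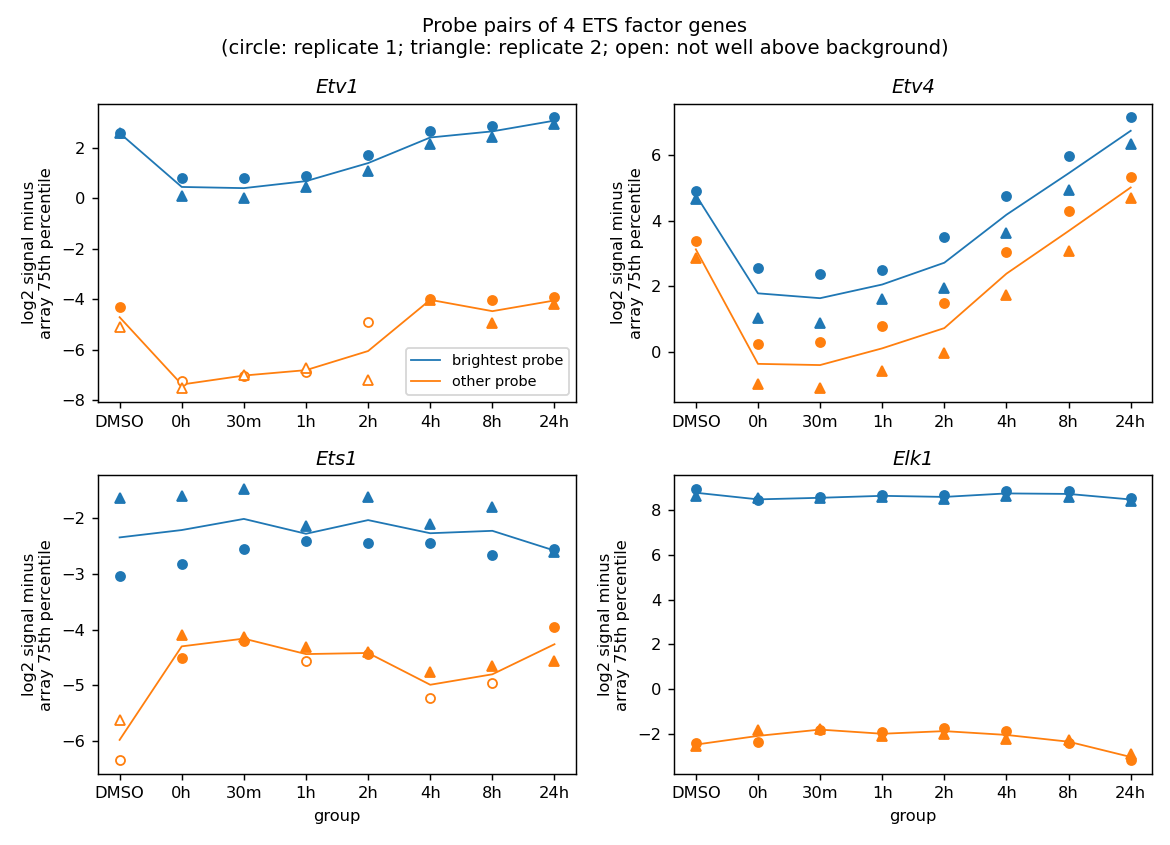
Log2 signal minus the array's 75th percentile (y) of the brightest probe (blue) and the other probe (orange) of Etv1, Etv4, Ets1 and Elk1 in the 8 groups (x), with 1 point per array and a line through the group means. Open points were not well above background. The probes of Etv4 run in parallel, the other probe of Etv1 is above background on 7 arrays, and the Elk1 probes part at 24h, where the other probe is 0.94 lower than at 0h.

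Elk3 is a ternary complex factor that represses until ERK phosphorylates it. Its slide 1 arrays read -0.50 in DMSO, -0.31 at 0h, -0.28 at 30m, -0.41 at 1h, -1.02 at 2h, -1.27 at 4h, 0.52 at 8h and 1.07 at 24h. Its slide 2 arrays read -0.28 in DMSO, -0.052 at 0h, -0.047 at 30m, -0.52 at 1h, -0.74 at 2h, -0.16 at 4h, 0.52 at 8h and 0.46 at 24h. The 8h and 24h arrays lie above all others, and the 2h arrays lie below the 0h arrays, while the 4h replicates lie far apart (-0.71 ± 0.79, SD, n = 2). At 2h against 0h it differed by -0.70 ± 0.32 (adjusted p = 0.814, limma) and at 8h by 0.70 ± 0.32 (0.228). At 24h against 0h it differed by 0.95 ± 0.32 (0.055, called higher with the slide as a block at 0.0334). Against DMSO it rose 2.22-fold at 24h (1.15 ± 0.32, adjusted p = 0.0428), the 1 gene of the 9 called there against backgrounds of 6.56% higher and 4.80% lower. That call was lost without DMSO replicate 1 (1.04), 24h replicate 1 (0.848) or DMSO replicate 2 (1.26). Median centring (1.14, adjusted p = 0.081), testing every gene without the filter (1.15, 0.0627) and the mean of its probes (0.827, 0.0889) ended it too. From low to high its groups ran 2h, 4h, 1h, DMSO, 0h, 30m, 8h and 24h, and the neighbours other than 30m and 8h overlapped. Of its other probes, 1 gave differences of -0.29 at 2h and 1.10 at 24h against 0h, and 1 gave 0.28 and 0.71, none of them called. The 2h difference passed on none of the 3 probes.

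Elk4 stayed within 0.56 across its group means. Elk4 on slide 1 stood at -1.11 in DMSO, -1.93 at 0h, -1.56 at 30m, -1.28 at 1h, -1.31 at 2h, -1.02 at 4h, -0.98 at 8h and -1.45 at 24h. Elk4 on slide 2 stood at -1.28 in DMSO, -1.48 at 0h, -1.35 at 30m, -1.52 at 1h, -1.18 at 2h, -1.27 at 4h, -1.32 at 8h and -1.53 at 24h. The 0h array of slide 1 is the lowest of the 16. Against 0h it differed by 0.56 ± 0.19 at 4h (adjusted p = 0.142, limma) and by 0.55 ± 0.19 at 8h (0.113), and at 0h it was -0.51 ± 0.19 from DMSO (0.189). Its groups ran 0h, 24h, 30m, 1h, 2h, DMSO, 8h and 4h from low to high, with overlap between all neighbours. Within slide 1 the 4h difference was 0.91 and within slide 2 it was 0.20. None of these was called with the block either, and its 2 other probes gave 0.62 and 0.18 at 4h against 0h, not called.

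Etv6 encodes a repressor known for its fusions in leukaemia. On slide 1 it stood at -0.52 in DMSO, -0.55 at 0h, -0.75 at 30m, -0.63 at 1h, -0.11 at 2h, 0.82 at 4h, 1.01 at 8h and 0.22 at 24h. On slide 2 it stood at -0.90 in DMSO, -0.84 at 0h, -1.10 at 30m, -0.87 at 1h, -0.50 at 2h, 0.43 at 4h, 0.018 at 8h and -0.33 at 24h. The 4h and 8h arrays lie above all arrays of DMSO to 2h, and slide 2 lies lower in every group. Against 0h it differed by 1.32 ± 0.33 at 4h (adjusted p = 0.0594, limma) and by 1.21 ± 0.33 at 8h (0.0543). With the slide as a block both were called higher (0.00215 and 0.00156), as was the smaller difference of 0.64 ± 0.33 at 24h (0.193, block 0.0114). Against DMSO it differed by 1.22 ± 0.33 at 8h (0.0545, block 0.00148) and by 0.66 ± 0.33 at 24h (0.244, block 0.0173). At 24h against 8h it differed by -0.57 ± 0.33, called lower only with the block (adjusted p = 0.339, block 0.0336), with -0.79 within slide 1 and -0.34 within slide 2. Its groups ran 30m, 1h, DMSO, 0h, 2h, 24h, 8h and 4h from low to high, and the neighbours other than 0h and 2h overlapped. At 0h it was 0.013 ± 0.33 from DMSO (95% interval -0.71 to 0.74).

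The comparisons with DMSO and with 8h share their arrays with those above. At 8h against DMSO limma called 0 of the 9 genes (3 at an unadjusted p under 0.05) where 6.48% of tested genes were called, and the block called 2 higher, Ets2 and Etv6, against 8.37% higher and 9.69% lower. At 24h against DMSO the block called 3 higher, Elk3, Etv4 and Etv6, against 12.5% higher and 13.4% lower. At 24h against 8h limma called 0 of the 9 (1 at an unadjusted p under 0.05) where 8.84% were called, and the block called Etv4 higher and Etv6 lower, against 12.7% and 10.2%. The Etv1 level at 8h was 0.067 ± 0.34 from DMSO, which limma did not call (adjusted p = 0.963, 95% interval -0.69 to 0.83).

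Across the 16 arrays, Etv1 and Etv4 ran closest among the 9 genes (Pearson r = 0.969). Etv5 ran with Etv6 (0.716) and Elk1 with Elk4 (0.782). Ets2 ran against Etv4 (-0.743) and Etv1 (-0.687). These are descriptions over 16 arrays that share their groups, slide and scaling, and carry no test. Among 4752 tested genes whose group means spanned at least 1 on the log2 scale, the 3 most like Etv4 were Gbx2 (r = 0.991), a homeobox factor gene, Maco1 (0.981) and Slc7a7 (0.981), an amino acid transporter gene. Those most like Etv1 were Pvt1 (0.976), a long noncoding RNA gene, Gbx2 (0.972) and Nt5e (0.969, above background on 9 arrays), which encodes the cell surface nucleotidase CD73. The Gbx2 differences were 4.58 at 24h against 0h and -2.81 at 0h against DMSO. Ets2 was most like Baz2b (0.952), Rcan2 (0.951) and Cald1 (0.951), which encodes caldesmon. Elk3 was most like Crem (0.934), a cAMP response factor gene, Cerk (0.923) and Rasgrp3 (0.920), the last above background on 6 arrays. Etv6 was most like Jmjd4 (0.979), Shisa5 (0.964) and Prss23 (0.957, above background on 9 arrays).

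Of 17 other ETS family genes, 13 passed the filter on dim probes. Erg, Fli1, Elf5 and Spi1 did not. At 24h against 0h, 1 of the 13 rose and 2 fell (1 and 5 with the block), and their median difference was -0.16 beside -0.0082 for all tested genes. Over all tested genes 10.8% were called higher and 12.9% lower there (18.3% and 21.1% with the block). Spic, a regulator of iron-handling macrophages in mouse, fell by 5.71 ± 0.90 (adjusted p = 0.00166, limma), its 24h level being above background on 1 of 2 arrays. Elf3, an epithelial ETS factor gene, fell by 2.48 ± 0.66 (0.0206). Erf, whose protein is a repressor that ERK exports from the nucleus, rose by 0.67 ± 0.17 at 24h (0.017) and by 0.76 ± 0.17 at 4h (0.0423). Spib, known from B cells, fell by 1.18 ± 0.23 at 4h (0.0279) and was back at 0.20 ± 0.23 from 0h at 24h (0.613). Of 10 regulators and partners of these factors, 8 were tested, namely the Capicua cofactor gene Atxn1l, the ubiquitin ligase genes Cop1 and Det1, serum response factor (Srf) and its cofactors Mrtfa and Mrtfb, and the acetyltransferase genes Crebbp and Ep300. Capicua itself was not among the tested genes. Limma called 0 of the 8 against 0h at any time (0 at an unadjusted p under 0.05 up to 8h and 1 at 24h). The block called 1 higher and 0 lower at 4h, against 7.75% and 8.36% of tested genes. It called 1 higher and 0 lower at 8h (8.44% and 12.6%), and 2 higher and 1 lower at 24h (18.3% and 21.1%). At 24h against DMSO, Srf was 0.75 ± 0.14 higher (adjusted p = 0.00815).

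The pathway genes around the ETS factors responded in the same arrays. Of 14 ERK feedback genes, all tested, 0 rose and 3 fell at 0h against DMSO, where 2.21% of tested genes were called higher and 1.28% lower (0 and 8 with the block, against 8.25% and 6.69%). Against 0h, 3 rose at 2h (background 0.115% in either direction), 9 at 4h (1.49% higher), 9 at 8h (3.12%) and 10 at 24h (10.8%), and 0 were called lower. Spred3, counted at 0h, 4h, 8h and 24h, was below background on both 0h arrays, so its differences are bounds. It was at least 2.47-fold lower at 0h than in DMSO. Against 0h it was higher by at least 2.01-fold at 4h, 3.55-fold at 8h and 3.68-fold at 24h. With the block 6 rose at 2h (0.479% in either direction), 10 at 4h (7.75% higher), 12 at 8h (8.44%) and 10 at 24h (18.3%), and the phosphatase gene Dusp7 was called lower at 4h (-0.88 ± 0.23, adjusted p = 0.0707, block 0.0283). Their median difference at 24h was 2.78, beside -0.0082 for all tested genes. The Sprouty gene Spry4, an inhibitor of receptor tyrosine kinase signalling, was 4.39 ± 0.38 higher at 2h (adjusted p = 0.00446) and 4.94 ± 0.38 higher at 24h (5.11e-05). The phosphatase gene Dusp6, which switches off ERK, was 3.40 ± 0.59 higher at 4h (0.02) and 3.97 ± 0.59 at 24h (0.00121). Of 9 immediate early genes known as targets of serum response factor and ternary complex factors, Srf among them, 3 rose at 2h, 3 at 4h, 4 at 8h and 4 at 24h (the same backgrounds apply), with a median of 1.29 at 2h beside 0.038 for all tested genes. Egr1 was 5.38 ± 0.57 higher at 2h (0.00787) and 3.78 ± 0.57 at 24h (0.00136), and Fos 4.85 ± 0.46 (0.00446) and 2.70 ± 0.46 (0.00238). With the block 3 of the 9 were called already at 1h, Egr1 (3.78 ± 0.57, adjusted p = 0.404, block 0.00378), Fos (3.55 ± 0.46, 0.231, block 0.00914) and Egr2 (at least 6.51-fold higher, block 0.0261), and 0.0192% of tested genes were. For Egr2 the p-value tests the log2 difference of the signals as read and not the bound, and the gene passed the filter through groups other than 0h. The block called 4 higher at 2h, 6 at 4h, 5 at 8h and 7 at 24h, and at 4h it called 1 lower, the survival factor gene Mcl1 (-0.29 ± 0.23, adjusted p = 0.558, block 0.0397). At 1h and 2h limma called 0 of the 9 ETS factor genes, where 0% and 0.115% of tested genes were called. The block called 0 of the 9 as well, against 0.0192% and 0.479%. At an unadjusted p under 0.05 the blocked fit gave 7 of the 9 at 2h, and 2126 of 15660 tested genes.

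Markers of cell state differed between groups, given here as summed signal in multiples of the array's 75th percentile. The 8 embryonic stem cell markers summed to 326 to 381 at 24h against 483 to 559 at 0h and 486 to 580 in DMSO. Of these 8, 1 was called higher and 4 lower at 24h against 0h, where 10.8% and 12.9% of tested genes were (1 and 5 with the block, against 18.3% and 21.1%). Nanog, a pluripotency factor gene, was at -1.76 on its lowest array, a 24h array. The 4 neural markers summed to 10.3 to 14.1 at 0h against 5.33 to 6.87 in DMSO, and to 7.09 to 8.15 at 8h and 3.78 to 4.28 at 24h. Of these 4, 0 were called higher and 2 lower at 24h against 0h (10.8% and 12.9% of tested genes). The 4 mesoderm markers summed to 0.225 to 0.236 at 0h, 0.411 to 0.525 at 4h, 0.435 to 0.78 at 8h and 0.393 to 0.446 at 24h. Against 0h, 2 of 3 tested were called higher at 8h and 1 at 24h, where 3.12% and 10.8% of tested genes were. T was above background on 2 arrays and Mesp1 on 4, so each passed the filter only through groups where it was bright. Any call of T or Mesp1 is therefore not independent of the filter. For these genes the shares of all tested genes are not a fair background. The 6 primitive endoderm markers summed to 1.25 to 3.18 at 24h against 0.421 to 0.45 at 0h, but 1 of 5 tested was called higher (10.8% of tested genes) and their median difference was -0.24. Gata6 reached 1.49 on its highest array, while the other 5 stayed at or below -0.41 on every array. The 6 blood and endothelial markers summed to 9.74 to 10.6 at 0h, 12 to 12.5 at 8h and 10.2 to 11 at 24h. Of 5 tested, 2 were called higher at 8h against 0h (3.12% of tested genes). At 24h against 0h, 1 was called higher and 1 lower (10.8% and 12.9%). The 5 fibroblast markers summed to 0.321 to 0.46 at 24h against 0.303 to 0.327 at 0h, and 0 of 3 tested were called by limma (1 at an unadjusted p under 0.05, and 1 lower with the block). The part of these shifts in the ETS factor results was not tested, and in bulk RNA fewer cells of a type and less RNA per cell cannot be told apart.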

How the data were processed

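Total RNA was labelled and hybridised in 1 colour to Agilent arrays. Per the file headers, the authors' scanner files hold processed intensity values, corrected for background and spatial trend within each array by Agilent Feature Extraction. The deposited value table holds the same intensity values rounded, with no scaling or centring. The labels name Cy5, while the files hold a green channel. Control spots and outlier spots (147 to 240 per array) were left out, 0 spots were saturated, and spots of a probe were averaged. Signals were taken as log2 minus the 75th percentile of the array. Of 55681 probes, 27656 matched 1 RefSeq gene by accession and 28025 none. Genes entered the tests when some group had its brightest probe well above background on each of its 2 arrays (15660 of 20972 genes).

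Each scanner file matched 1 value table column at 100% of spots (tolerance 0.6%). For 8 arrays that column belongs to another sample than the attached one, namely replicate 2 of DMSO, 0h, 30m and 1h in exchange with replicate 1 of 2h, 4h, 8h and 24h. Group differences came from limma 3.58.1, run in R 4.3.3, on 8 group means (8 residual and 2.15 prior degrees of freedom), with Benjamini-Hochberg adjustment within a comparison, and the F test covered the 6 differences from 0h. The fit was tested on simulated data with changes at 24h. It called 50 of 100 genes changed by 1 on the log2 scale and 91 of 100 changed by 3, with 8 false calls. The simulated errors were independent between arrays, unlike those of the real arrays, so the simulation does not test the effect of the shared slide. Deviations of same-numbered arrays from their group means correlated at 0.328 to 0.659 in 28 of 28 pairs of groups. The replicate number, which is also the slide, was therefore fitted as a block in a second fit. The main fit leaves this pairing out, and calls that only the block made are named as such. The number of arrays limits the precision.

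Named genes were the 9 genes, the 3 genes most correlated with each gene that the F test called, and called genes of the lists (at most 4 per comparison, the largest differences first, of which examples are given). The members and lists were chosen with earlier results of these data known. Alternatives changed the centring (median, quantile), the background correction (normexp, offset 50), the filter, the probe rule, the signal source, the arrays' samples, the samples in the fit and the block, or left out 1 array.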

Additional observations from a re-analysis of the deposited data

How the results depend on the processing

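The values below count how many of the 9 genes were called. When each scanner file was given the sample it is attached to, 0 were called in every comparison and by the F test, and 4 differences that limma had called turned negative: Etv1 at 4h (-0.584), 8h (-0.499) and 24h (-0.0202) and Etv4 at 8h (-0.737), all against 0h. Of 15846 genes tested that way, 304 were called at 4h, 388 at 8h, 331 at 24h and 635 by the F test. The replicate block (slide) gave 4 at 4h against 0h (1 as reported), 5 at 8h (2 as reported), 5 at 24h (3 as reported), 2 at 8h against DMSO (0 as reported), 3 at 24h against DMSO (1 as reported) and 2 at 24h against 8h (0 as reported), and changed no other count by more than 1.5 times. Median centring gave 0 at 0h against DMSO (2 as reported), 0 at 4h, 0 at 24h against DMSO and 3 by the F test (5 as reported). Over all 15660 tested genes it called 258, 98, 778 and 1621 there. Testing only genes above background on all arrays gave 2 at 4h, 4 at 8h and 1 at 8h against DMSO. Of the 13364 genes tested that way, 519, 999 and 931 were called there. Fitting only the groups compared, which leaves fewer arrays to estimate the spread, gave 0 at 0h against DMSO, 0 at 4h, 0 at 8h and 0 at 24h against DMSO. Over all 15660 tested genes that fit called 0, 0, 0 and 1 there, so these counts of 0 are not particular to the 9 genes. At 24h against DMSO the mean of all probes and no filter each gave 0, where 1819 of 15671 and 1448 of 20972 tested genes were called. Quantile normalization, normexp and the value table's signals kept every count within 1.5 times. Leaving out 1 array of the groups compared gave 0 to 2 at 0h against DMSO, 0 to 0 at 30m, 1h and 2h, 0 to 1 at 4h, 0 to 4 at 8h, 3 to 4 at 24h, 0 to 1 at 8h against DMSO, 0 to 1 at 24h against DMSO, 0 to 0 at 24h against 8h and 4 to 5 by the F test, and a lone remaining array was assumed to vary like the other groups. Except where stated, the cause was not tested. Dim probes of Etv1 and Ets1 give only bounds where they lay near background.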
